A study of Mus musculus with 18 samples.

Results

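The mitochondrial carriers of the Slc25 family were followed in splenic erythroblasts of mice with 5 combinations of Klf1 alleles. Members were the rows of the deposited count table whose symbol was Slc25a followed by a number, leaving out Slc25a28, Slc25a37 and Slc25a38, and with 10 or more counts in at least 3 libraries. Of 47 such symbols among 23365 rows, 3 were left out by name and 4 fell short of the count rule, which left 40 members. Slc25a34 was just inside the rule, with 49 counts in all and 3 libraries at 10 or more. Slc25a31, the testis ADP/ATP translocase, was just outside it, with 59 counts and 1 such library. The other 3 short of it were Slc25a41 with 19 counts, Slc25a54 with 10 counts and Slc25a48 with 0 counts. All 40 members also passed the filter on low counts used for testing.

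KLF1 is an erythroid transcription factor with zinc fingers joined by short linkers. The study set its wild-type allele (WT) beside a knockout allele (KO) and the MommeD45 allele (D45), a missense change in the second linker. RNA was taken from CD71+/TER119+ cells sorted from spleen, with 3 libraries each for WT/WT, WT/D45 and D45/D45 mice, 5 for WT/KO mice and 4 for D45/KO mice. Compound heterozygotes are described by the submitters as anaemic with an enlarged spleen, so allele and anaemia cannot be told apart in D45/KO. The deleted part of the KO allele, the clone or strain, and the age and sex of the mice are not given in the sources used here. Differential gene expression across these genotypes was the stated purpose.

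Slc25 proteins sit mostly in the inner mitochondrial membrane, where each exchanges or imports a small group of solutes: phosphate, nucleotides, keto acids, amino acids, acylcarnitines or cofactors. The fold repeats pairs of helices and opens to one side of the membrane at a time. Erythroblasts rely on such carriers because haem synthesis starts and ends in the matrix, and glutathione, glycine, folate and iron have to reach it.

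Library totals ran from 9360455 to 56323588 counts. Klf1 itself was read in every library, at 158 to 834 CPM (counts scaled to a common library size with TMM factors, which correct for unequal make-up of libraries) in WT/KO and 282 to 1576 CPM in the other 4 genotypes. Reads outside a deleted part cannot check the KO label. All 8 erythroid markers were detected in every library. Libraries also differed within every genotype: 13 B cell markers had a mean of 3.63 to 7.07 log2 CPM in 9 libraries and of -2.65 to -0.77 in the other 9. The 9 high libraries were all 7 from mice with an identifier under 200 in the labels, plus WT/KO replicate 2 and D45/KO replicate 2. The labels do not say what the identifier marks. TMM factors ran from 1.09 to 1.93 in the 9 high libraries and from 0.366 to 0.954 in the low ones, so the choice of scaling weighs on every level below. In bulk samples such as these, fewer cells of a type and less RNA per cell cannot be told apart.

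The 40 carriers covered a wide range of levels. By the median over 18 libraries, 4 carriers reached 100 CPM or more, 13 lay between 10 and 100 CPM, 15 between 1 and 10 CPM, and 8 under 1 CPM. Per kilobase of exon, Slc25a39 ranked first with a median of 373 CPM per kb, followed by Slc25a51 at 111, Slc25a5 at 73.4, Slc25a3 at 28.4 and Slc25a44 at 27.3 CPM per kb. The ranges of the first 3 overlapped between libraries, at 118 to 2730.0, 46.3 to 331 and 37.6 to 100.2 CPM per kb. The median SD of log2 CPM over the libraries was 1.21 for the carriers and 1.09 for all 13405 genes tested.

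**Figure D1:**
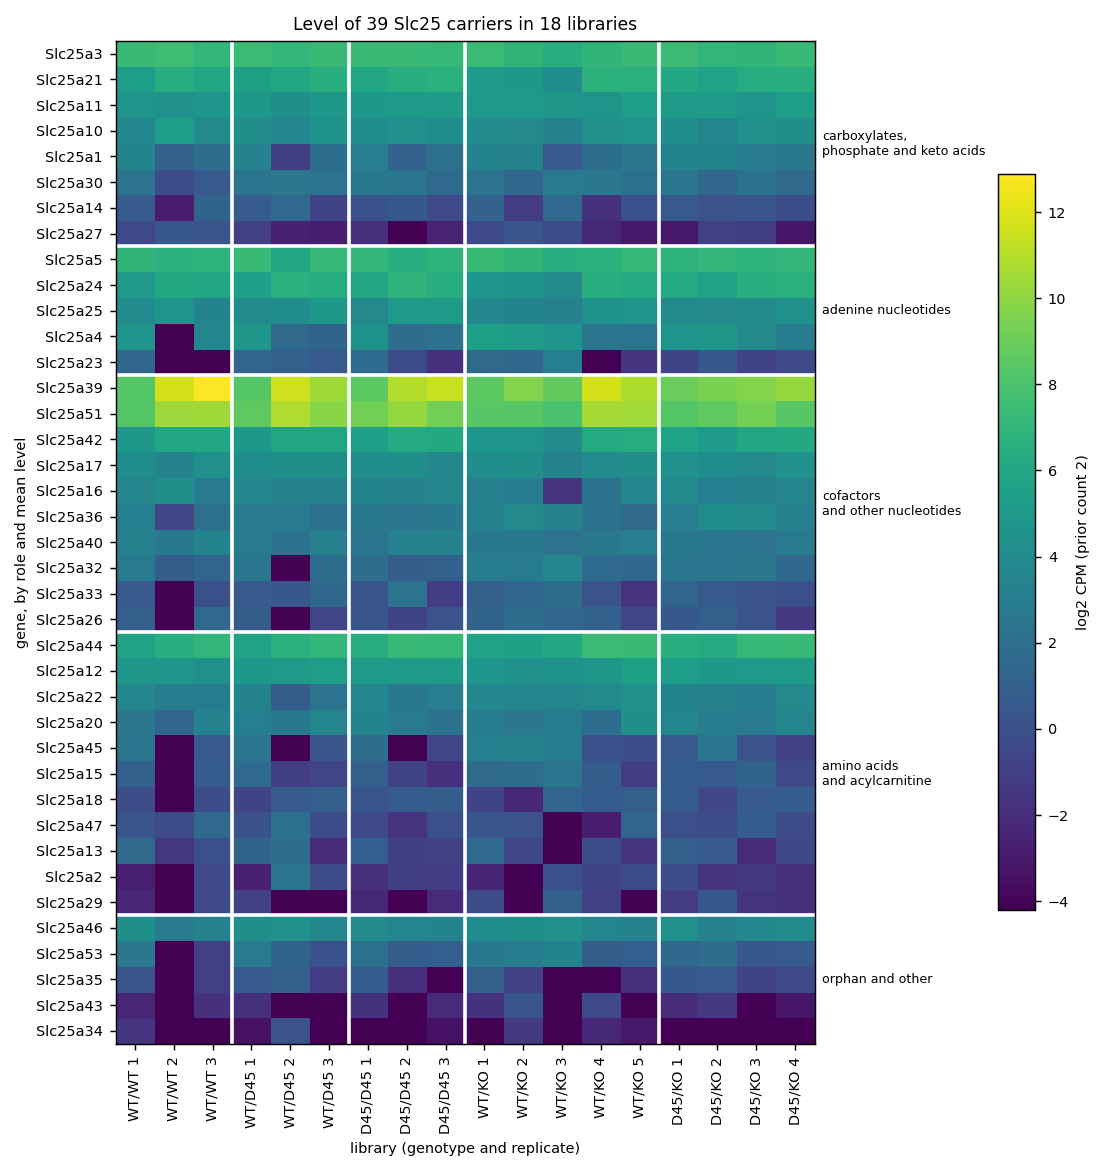
Level of 39 carriers (rows, grouped by role) in each of the 18 libraries (columns, by genotype and replicate), as log2 CPM with a prior count of 2. Slc25a39 and Slc25a51 form the brightest rows, and Slc25a39 is lowest in replicate 1 of each genotype.

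The mitochondrial glutathione importer Slc25a39 was the most abundant carrier. Its 3 WT/WT libraries read 325, 3447 and 7524 CPM, WT/D45 read 336, 3191 and 1396 CPM, and D45/D45 read 378, 1889 and 2808 CPM. WT/KO read 382, 839, 437, 3470.1 and 1735 CPM, and D45/KO read 500.0, 708, 845 and 1213 CPM. The genotypes overlapped, and the lowest library of each genotype was replicate 1, in every case with an identifier under 200. Its paralog Slc25a40, also a glutathione importer, stayed between 4.70 and 11.4 CPM in all 18 libraries. The log2 ratio of Slc25a39 to Slc25a40 counts, which needs no scaling between libraries, was lowest in WT/WT replicate 1, at 5.02, and highest in WT/D45 replicate 2, at 9.39.

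KLF1 binds CACCC-type letters, so promoter windows of the carriers were searched for CCNCNCCC on both strands. RefSeq windows of 300 bases (250 before the start and 50 after it, GRCm38.p6) were found for 31 of the 40 members, 41 windows in all, and 29 of these (70.7%) held a match against 49.5% of 32851 windows of all genes. The letters AGATAA, a motif of GATA factors, stood in 3 of the 41 windows (7.32%) against 11.2% of all windows. Some members have several windows, and those of Slc25a14 and of Slc25a23 overlap, so the 41 are not independent. The windows of all genes were not matched for GC content or level, and the difference in shares was not tested. The windows of Slc25a39 and of the coenzyme A carrier Slc25a42 are shown because both carriers were called in the comparison by identifier described further on. They lie on the minus strand at chr11:102407468-102407767 and chr8:70212232-70212531, and capitals mark matches to CCNCNCCC on either strand.
Slc25a39: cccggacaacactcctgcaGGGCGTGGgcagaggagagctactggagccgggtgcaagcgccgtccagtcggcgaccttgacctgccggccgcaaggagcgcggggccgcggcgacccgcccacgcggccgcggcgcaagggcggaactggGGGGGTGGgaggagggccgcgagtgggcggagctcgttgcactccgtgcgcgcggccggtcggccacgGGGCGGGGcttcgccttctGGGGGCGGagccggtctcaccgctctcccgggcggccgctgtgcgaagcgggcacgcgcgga
Slc25a42: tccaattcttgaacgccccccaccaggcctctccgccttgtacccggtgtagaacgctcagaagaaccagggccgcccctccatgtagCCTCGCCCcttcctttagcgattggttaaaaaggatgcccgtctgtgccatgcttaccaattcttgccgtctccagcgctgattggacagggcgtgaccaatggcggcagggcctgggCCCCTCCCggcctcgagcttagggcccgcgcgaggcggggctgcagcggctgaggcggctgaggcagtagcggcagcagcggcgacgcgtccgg
Slc25a39 held 4 matches and Slc25a42 held 2, and neither held AGATAA. A match describes letters in a GC-rich window and says nothing of binding.

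Slc25a51, the mitochondrial NAD carrier, was the other very abundant member. It read 319, 1311 and 1385 CPM in WT/WT mice, then 396, 1823 and 903 CPM with 1 D45 allele, and 609.7, 1177 and 609 CPM in D45/D45 mice. The WT/KO libraries read 352, 352, 255, 1556 and 1476 CPM, and the D45/KO libraries 313, 397, 641 and 339 CPM. D45/KO lay within the range of WT/KO and overlapped WT/WT. Together these 2 genes made up most carrier reads in many libraries: Slc25a39 alone took 21.1% to 77.8% of the counts of the 40 carriers, and Slc25a51 took 13.5% to 35.1%. On the TMM scale the other 38 carriers summed to 562 to 993 CPM, and all 40 to 1253 to 9670 CPM. TMM factors ran from 0.366 to 1.93, so the width of each range depends on the scaling. The contrast between them is not to be read as a stable remainder of the family. The share of Slc25a39 was 21.1% to 36.3% in the 7 libraries with identifiers under 200 and 38.6% to 77.8% in the other 11.

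**Figure D2:**
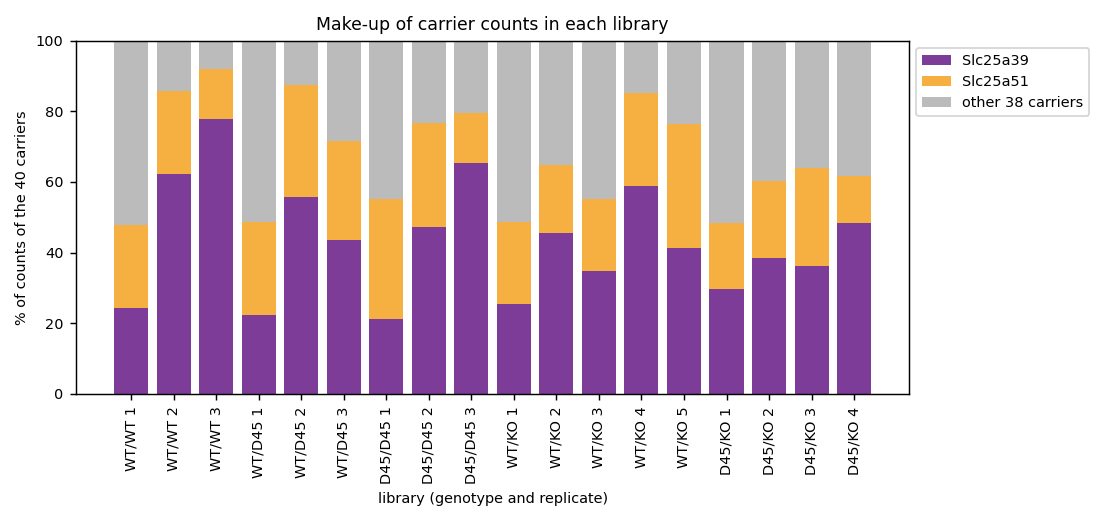
Percent of the counts of the 40 carriers taken by Slc25a39, Slc25a51 and the other 38 carriers together (stacked bars from 0 to 100%), for each library. Slc25a39 takes its smallest share, 21.1%, in D45/D45 replicate 1 and its largest, 77.8%, in WT/WT replicate 3.

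Among the carriers of phosphate and carboxylates, the phosphate carrier Slc25a3 was steady on the TMM scale. It read 167, 191 and 136 CPM in WT/WT and 179.6, 129.97, 123 and 163.04 CPM in D45/KO, with a lowest value of 96.7 and a highest of 191 CPM over all libraries. Slc25a11, the oxoglutarate carrier of the malate-aspartate shuttle, read 24.9, 21.5 and 26.6 CPM in WT/WT, 29.9, 34.6 and 37.0 CPM in D45/D45, and 38.4, 37.3, 25.05 and 39.2 CPM in D45/KO. The D45/D45 libraries all lay above the WT/WT libraries, and 3 of the 4 D45/KO libraries did. The dicarboxylate carrier Slc25a10 ran from 9.31 to 39.9 CPM, with WT/WT replicate 2 highest. The citrate exporter Slc25a1 ran from 0.427 to 11.3 CPM, and its highest WT/WT, WT/D45, D45/D45 and WT/KO libraries were each replicate 1. The oxodicarboxylate carrier Slc25a21 ran from 18.2 to 107 CPM. The uncoupling-protein-like carriers were low: Slc25a30 reached 7.01 CPM, Slc25a14 3.10 CPM and Slc25a27 1.35 CPM.

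Among the adenine nucleotide carriers, the ADP/ATP translocase Slc25a5 read 126, 106 and 116 CPM in WT/WT and 116, 136, 113 and 136 CPM in D45/KO. It has near-identical pseudogene copies, and the sources used here do not say how shared reads were counted, so its level is uncertain. Its paralog Slc25a4 read 25.6, 0 and 12.2 CPM in WT/WT and 24.6, 28.2, 14.1 and 7.90 CPM in D45/KO. Slc25a4 was at 23.4 CPM or more in 8 of the 9 libraries with high B cell markers and at 12.2 CPM or less in the other 9. The calcium-regulated ATP-Mg/phosphate carrier Slc25a24 read 26.8, 22.9, 15.6, 96.1 and 79.2 CPM in WT/KO and 80.1, 50.3, 89.4 and 97.4 CPM in D45/KO. The first 3 WT/KO libraries, those with high B cell markers, lay below every D45/KO library, and the last 2 lay among them. Of its relatives, Slc25a25 ran from 9.17 to 33.7 CPM and Slc25a23 from 0 to 8.78 CPM.

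Among the carriers of cofactors and other nucleotides, the coenzyme A carrier Slc25a42 read 30.3, 66.9 and 61.3 CPM in WT/WT and 51.5, 38.3, 64.1 and 73.0 CPM in D45/KO. Slc25a36, a pyrimidine nucleotide carrier, read 8.94, 0.634 and 4.20 CPM in WT/WT and 8.68, 17.0, 15.8 and 9.52 CPM in D45/KO, where 1 D45/KO library lay below the highest WT/WT library. The other pyrimidine carrier, Slc25a33, reached 4.79 CPM, and Slc25a32, which moves folate and FAD, reached 13.1 CPM. Slc25a16, a carrier tied to coenzyme A, ran from 0.262 to 19.0 CPM. Slc25a17, a carrier of the peroxisome, kept to 10.6 to 21.5 CPM, and the S-adenosylmethionine carrier Slc25a26 reached 3.65 CPM.

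Among the amino acid and acylcarnitine carriers, the branched-chain amino acid carrier Slc25a44 was the most abundant, at 46.5 to 170.7 CPM. The aspartate/glutamate carrier Slc25a12 (aralar) read 27.9, 27.8 and 20.6 CPM in WT/WT. It read 29.7, 34.1 and 39.9 CPM in WT/D45, 34.6, 34.5 and 35.5 CPM in the D45 homozygotes, and 39.97, 30.2, 32.8 and 37.1 CPM in D45/KO. WT/KO, with no D45 allele, read 27.7, 20.5, 24.0, 28.9 and 45.6 CPM. The 10 libraries with a D45 allele lay above all of WT/WT, but WT/KO spanned both and held the highest library of all. Its paralog Slc25a13 (citrin) was far lower, from 0 to 3.74 CPM. The carnitine/acylcarnitine carrier Slc25a20 ran from 2.69 to 19.2 CPM and the glutamate carrier Slc25a22 from 1.71 to 21.8 CPM. The ornithine carrier Slc25a15 reached 5.24 CPM, and its relative Slc25a2 reached 5.02 CPM in WT/D45 replicate 2 and stayed under 1 CPM elsewhere. The glutamate carrier Slc25a18, the basic amino acid carriers Slc25a29 and Slc25a45 and the liver-enriched Slc25a47 reached 2.56, 2.10, 10.9 and 4.70 CPM.

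Of the remaining carriers, Slc25a46, an outer-membrane member with a part in mitochondrial dynamics, ran from 6.97 to 21.6 CPM. Slc25a53 reached 11.0 CPM, and Slc25a35, Slc25a43 and Slc25a34 reached 2.03, 1.22 and 1.07 CPM. The exons of 7 members (Slc25a11, Slc25a18, Slc25a21, Slc25a25, Slc25a26, Slc25a35 and Slc25a47) overlap those of another gene of the count table in GENCODE M21, 6 of them on the opposite strand. The sources used here do not give the strand setting, so their reads cannot be told apart from those of the neighbour.

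**Figure D3:**
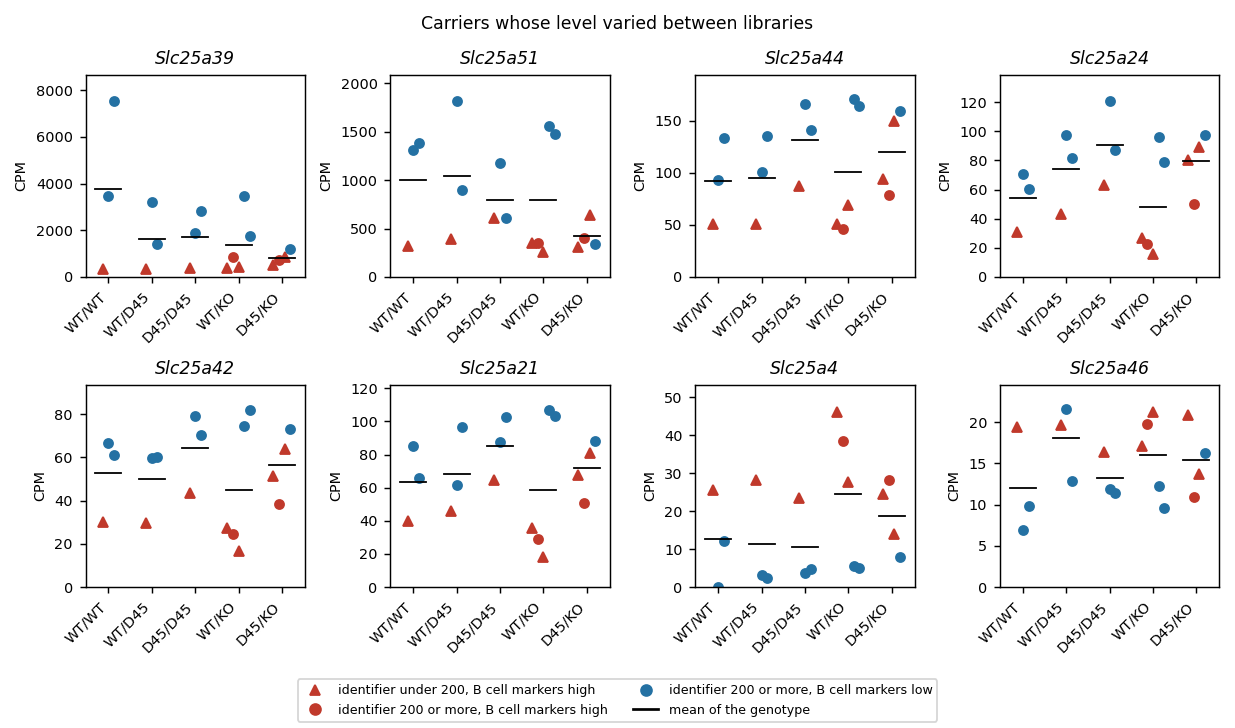
CPM of 8 carriers in every library, by genotype; each point is 1 library, the line is the genotype mean, triangles mark identifiers under 200 and red marks high B cell markers. Slc25a39, Slc25a51, Slc25a44, Slc25a24, Slc25a42 and Slc25a21 are mostly lower in red libraries, and Slc25a4 and Slc25a46 mostly higher.

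**Figure D4:**
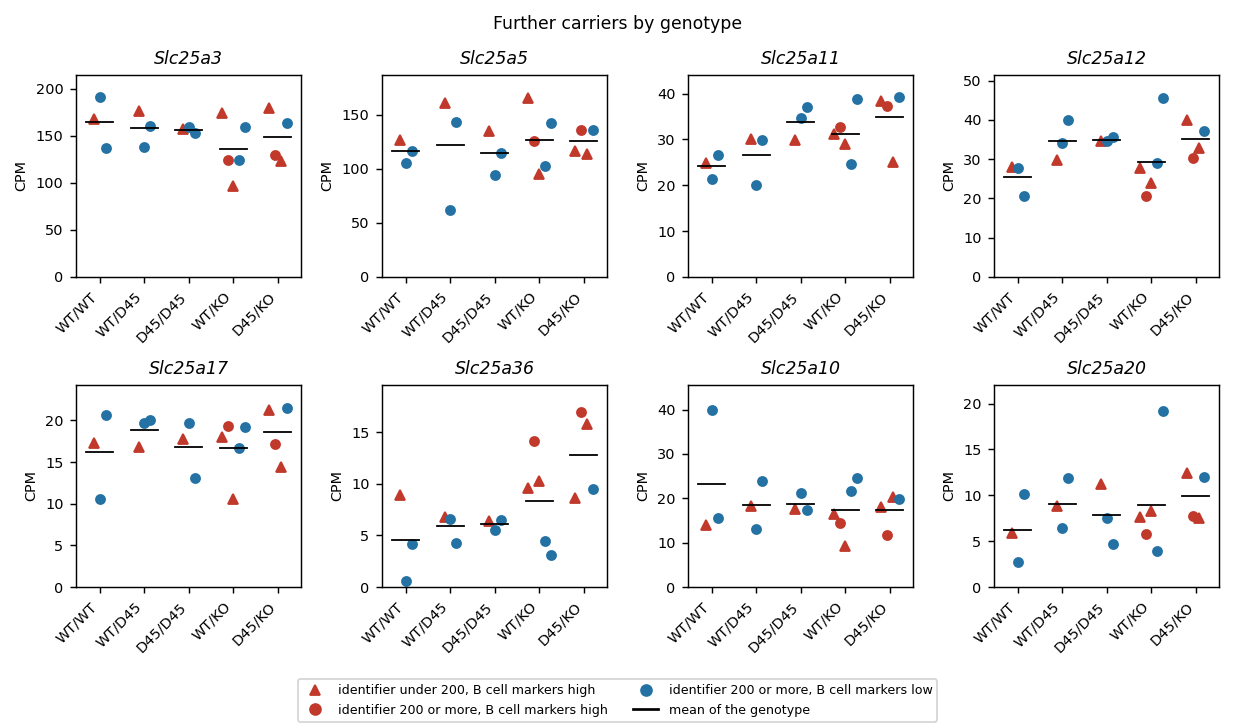
CPM of 8 further carriers in every library, with the same symbols. Slc25a3 stays between 96.7 and 191 CPM, Slc25a12 has every WT/D45, D45/D45 and D45/KO point above every WT/WT point while WT/KO runs from 20.5 to 45.6 CPM, and Slc25a36 has its highest point, 17.0 CPM, in D45/KO.

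Replacing WT by D45 beside a null allele (D45/KO against WT/KO) gave no carrier past the test. By edgeR's quasi-likelihood test with Benjamini-Hochberg adjustment, 0 of 40 carriers were called at an adjusted p under 0.05, where 0.172% of all genes tested were called. A count of 0 does not show that the carriers did not differ. At an unadjusted p under 0.05 there was 1 carrier (2.50%, against 5.41% of all genes), Slc25a34. DESeq2 and limma-voom also called 0, where they called 1.38% and 0.50% of all genes. The median log2 fold change was -0.07 over the carriers and -0.15 over all genes, and no carrier had groups without overlap (2.71% of all genes). The smallest p-values among carriers with a higher D45/KO estimate belonged to Slc25a24 at 0.72 ± 0.47 (SE), Slc25a16 at 0.69 ± 0.61 and Slc25a12 at 0.25 ± 0.23 log2. Among those with a lower estimate, Slc25a34 and Slc25a51, at -0.92 ± 0.63 log2, were among the 3 smallest. The adjusted p in edgeR's quasi-likelihood test was 0.927 for all of these but Slc25a34, where it was 0.856.

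Slc25a34 had 0 counts in the 4 D45/KO libraries against 22 counts in the 5 WT/KO and 12 counts in the 3 WT/WT libraries. Single libraries held most of these counts: 18 of the 22 came from WT/KO replicate 2, and all 12 from WT/WT replicate 1. D45/D45 held 1 count. No fold is given for so few counts.

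Calls in this comparison turned on how the split libraries were treated, and Slc25a24 was called in 3 of those fits. When the fit was adjusted for B cell marker level, its log2 fold change was 0.92 ± 0.23 with an edgeR adjusted p of 0.0302, and it was then the only carrier called, while 2.83% of all genes were. Within the 4 libraries with identifiers under 200, the difference was 2.01 ± 0.40 (edgeR adjusted p = 1.63e-05), and within the 6 with high B cell markers 1.79 ± 0.32 (adjusted p = 0.0136). In those subsets 6 and 3 carriers were called, where 18.4% and 7.55% of all genes were. Slc25a21 and Slc25a42 were called in both, and Slc25a23, Slc25a44 and Slc25a45 with identifiers under 200 alone. B cell marker means in those 6 libraries were 3.63 to 5.73 log2 CPM for D45/KO against 6.83 to 7.07 for WT/KO. The genotypes were therefore unequal in these markers inside the subset, and their part in the result was not tested.

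Against WT/WT, the compound heterozygote D45/KO also gave no called carrier. By edgeR's test 0 of 40 carriers were called, against 0.619% of all genes. At an unadjusted p under 0.05 there were 4 carriers, beside 8.93% of all genes. DESeq2 and limma-voom called 0 carriers, and 3.14% and 0.559% of all genes. On library totals without TMM factors, 70.1% of the genes called were higher in D45/KO, against 42.2% with them, and still 0 carriers were called. Of the 4, Slc25a39 had a log2 fold change of -2.21 ± 1.0 (edgeR adjusted p = 0.526), Slc25a36 of 1.47 ± 0.68 (0.541) and Slc25a11 of 0.53 ± 0.25 (0.553), and Slc25a34 was the fourth (0.535). Slc25a39 averaged 816 ± 300.1 CPM in D45/KO (SD, n = 4) and 3765 ± 3610 CPM in WT/WT (SD, n = 3), and the groups overlapped. Slc25a51 stood at -1.25 ± 0.70. Leaving out 1 library at a time, Slc25a39 ran from -2.75 to -1.21 and Slc25a36 from 0.95 to 2.42. Within libraries of identifiers under 200 both signs turned, to 0.94 for Slc25a39 and 0.46 for Slc25a51. Among the low B cell marker libraries Slc25a51 was called, at -2.00 ± 0.48 (edgeR adjusted p = 0.0276), where 2.35% of all genes were called and D45/KO was a single library, replicate 4.

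Slc25a12 and Slc25a27 were the 2 carriers of 40 without overlap between D45/KO and WT/WT (10.2% of all genes). Slc25a12, at 0.46 ± 0.27 log2 with an edgeR adjusted p of 0.697, averaged 35.0 ± 4.36 CPM in D45/KO (SD, n = 4) and 25.4 ± 4.16 CPM in WT/WT (SD, n = 3). Slc25a27 averaged 0.261 and 1.06 CPM. The median log2 fold change was 0.19 over the carriers and 0.07 over all genes.

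The other genotype comparisons likewise had 0 of 40 carriers called by edgeR, DESeq2 and limma-voom. In edgeR, 0% of all genes were called for D45/D45, WT/D45 and WT/KO against WT/WT, and 0.00746% for D45/KO against D45/D45 and for the interaction, which asks if D45 in place of WT differs beside KO and beside WT. The carriers at an unadjusted p under 0.05 numbered 1 (Slc25a27), 0, 1, 0 and 1 (Slc25a34) in that order, against 4.07%, 1.45%, 4.27%, 2.26% and 2.45% of all genes. Carrier medians were 0.02, 0.14, 0.20, 0.08 and -0.19 log2, beside 0.01, 0.10, 0.26, 0.06 and -0.26 over all genes. DESeq2 called 0.507%, 0%, 0.142%, 0.127% and 0.112% of all genes in that order, and limma-voom 0.00746% for WT/KO against WT/WT and 0% in the other 4. Scaling by library totals shifted the median of all genes by 0.21 for WT/D45 and 0.38 for WT/KO against WT/WT, 0.30 for D45/KO against WT/WT, 0.31 for D45/KO against D45/D45 and -0.30 for the interaction. These comparisons share the WT/WT or D45/KO libraries and are not independent of each other.

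In D45/D45 against WT/WT, the leading estimates were -3.08 ± 1.40 for Slc25a27, 0.48 ± 0.26 for Slc25a11, 1.04 ± 0.63 for Slc25a30 0.46 ± 0.28 for Slc25a12 and -1.15 ± 1.07 for Slc25a39, each with an edgeR adjusted p of 1. Slc25a27 read 0.221, 0 and 0.125 CPM against 0.682, 1.35 and 1.17 CPM. It, Slc25a11, Slc25a12 and Slc25a18 were the 4 carriers without overlap (11.0% of all genes). In WT/D45 against WT/WT, Slc25a30 stood at 1.15 ± 0.63, Slc25a2 at 2.94 ± 1.71, Slc25a12 at 0.44 ± 0.28, Slc25a27 at -2.20 ± 1.35, Slc25a22 at -0.75 ± 0.53 and Slc25a39 at -1.20 ± 1.07. The Slc25a2 estimate rested on WT/D45 replicate 2 and was 0.74 without it. Leaving out 1 library at a time, Slc25a39 ran from -2.12 to -0.20, Slc25a30 from 0.74 to 2.27 and Slc25a22 from -1.55 to -0.32. Slc25a12 and Slc25a27 did not overlap there (4.04% of all genes).

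In WT/KO against WT/WT, Slc25a30 stood at 1.07 ± 0.58 (edgeR adjusted p = 0.818), Slc25a11 at 0.36 ± 0.24, Slc25a39 at -1.46 ± 0.92, Slc25a40 at -0.54 ± 0.37 and Slc25a16 at -0.84 ± 0.66, and no carrier was without overlap (1.61% of all genes). With 1 library left out, Slc25a30 ran there from 0.66 to 2.19 and Slc25a39 from -2.15 to -0.46. In D45/KO against D45/D45, Slc25a36 stood at 1.05 ± 0.67, Slc25a29 at 2.30 ± 1.98, Slc25a1 at 0.82 ± 0.86, Slc25a25 at -0.66 ± 0.42, Slc25a40 at -0.58 ± 0.39 and Slc25a51 at -0.92 ± 0.70. Slc25a36, at 8.68 to 17.0 CPM against 5.50 to 6.51 CPM, and the scarce Slc25a29 did not overlap (4.77% of all genes). In that comparison 10 macrophage markers had a median log2 fold change of 2.63, with 9 at an unadjusted p under 0.05 and 0 called by edgeR, and their part in the carrier values was not tested. The interaction had small p-values on the lower side at Slc25a34 and Slc25a30 (-1.48 ± 0.82) and on the higher side at Slc25a16 (0.91 ± 0.96), Slc25a10 (0.34 ± 0.56) and Slc25a42 (0.42 ± 0.68), all with an edgeR adjusted p of 1.

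**Figure D5:**
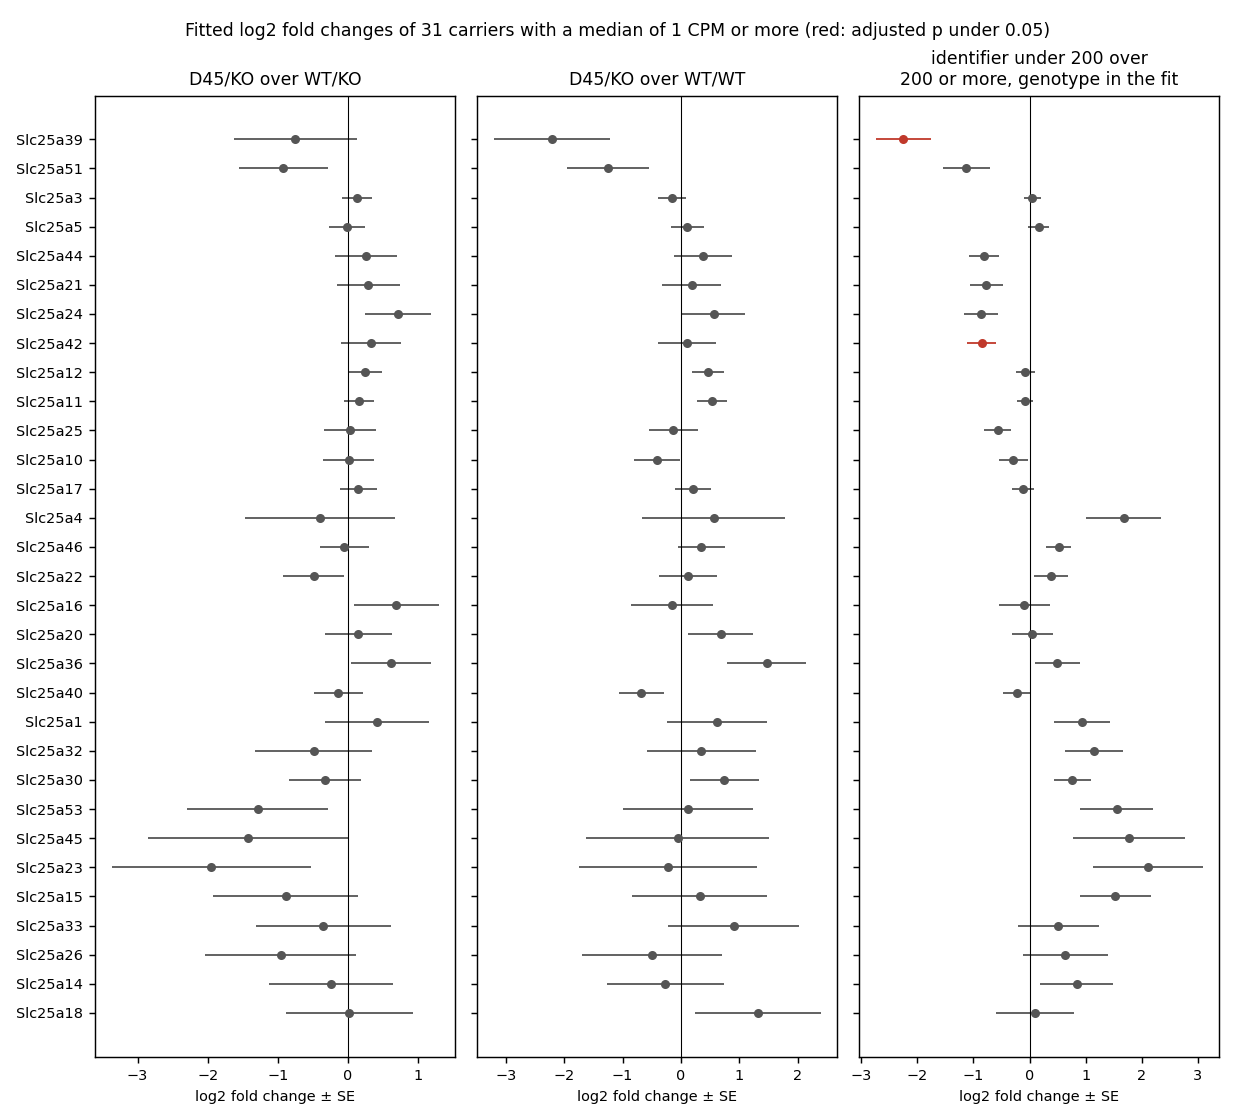
Fitted log2 fold changes with SE for 31 carriers with a median of 1 CPM or more in 3 comparisons; red marks an adjusted p under 0.05. No carrier is red in the genotype panels, and Slc25a39 and Slc25a42 are red in the identifier panel.

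Carriers were called between mouse identifiers. With genotype in the fit, 3 of 40 carriers (7.50%) differed between identifiers under 200 and 200 or more, a smaller share than the 13.9% of all genes called. Slc25a39 fell by 2.25 ± 0.49 log2 (edgeR adjusted p = 0.0151), with a lowest, median and highest of 325, 382 and 845 CPM under 200 and 708, 1889 and 7524 CPM otherwise. Slc25a42 fell by 0.85 ± 0.26 (edgeR adjusted p = 0.0436), from 24.7, 66.9 and 81.9 CPM at 200 or more to 16.6, 30.3 and 64.1 CPM. The 2 sets of libraries overlapped for every carrier (0.336% of all genes did not).

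These calls hang on the scaling. Dividing by library totals without TMM factors moved the median log2 fold change of all genes in this comparison by 1.04, and the share of called genes that were higher under 200 went from 27.7% to 96.6%. Slc25a39 still fell, by 1.09 ± 0.20 (edgeR adjusted p = 0.00821), while Slc25a42 turned to 0.29 ± 0.23 and lost its call. On that scale 18 carriers were higher and 1, Slc25a39, lower, beside 45.8% of all genes called, the steady Slc25a3 among the higher at 1.12 ± 0.27. On both scales Slc25a39 and Slc25a42 lay below the median gene. Changing the scale moves all genes by a similar amount, so this is no separate check on the calls.

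On the TMM scale 15 carriers (37.5%), the 3 called ones among them, had an unadjusted p under 0.05, against 34.0% of all genes. Those short of the adjusted threshold included Slc25a44 at -0.81 ± 0.27 (edgeR adjusted p = 0.059), Slc25a24 at -0.86 ± 0.30 (0.0657), Slc25a51 at -1.13 ± 0.42 (0.0736), Slc25a4 at 1.68 ± 0.67 (0.0927) and Slc25a46 at 0.52 ± 0.22 (0.102). On library totals the falls were not kept: Slc25a44 stood at 0.33 ± 0.18, Slc25a24 at 0.30 ± 0.23 and Slc25a51 at 0 ± 0.25. Slc25a4 and Slc25a46 stayed higher there, at 2.78 ± 0.87 and 1.57 ± 0.38. DESeq2 called 12 carriers (24.4% of all genes) and limma-voom 8 (27.7%). Leaving out 1 library at a time gave 0 to 12 carriers, and the share of all genes called moved with them. No carrier was called without WT/WT, WT/D45 or D45/D45 replicate 1, each the only library under 200 of its genotype, and 0%, 0% and 0.0213% of all genes were. Without WT/KO or D45/KO replicate 2, 12 and 11 carriers (30.8% and 27.5%) and 30.9% and 33.9% of all genes were called. The Slc25a39 call was lost in 3 of these 18 fits and the Slc25a42 call in 14 of them. With the replicate number as a block beside the identifier, 0 carriers and 0% of all genes were called, and Slc25a39 stood at -1.70 and Slc25a42 at -0.40. Replicate 1 of every genotype has an identifier under 200.

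Markers of cells moved with the same split. In edgeR's test on the TMM scale, 6 of 8 erythroid markers fell under 200, among them Tfrc, Alas2, Epor, Gata1 and Rhag (-1.03 to -2.25 log2). The 8 erythroid markers summed to 11959 to 37309 CPM under 200 against 15907 to 107175 CPM otherwise. Library totals moved the median of all genes here by 1.04 log2, about as much as the smallest of these falls. The sign of a fall near that size, and not only its size, therefore depends on the scaling. Marker changes on library totals are not given here. B cell markers summed to 207 to 2233 CPM against 2.36 to 1850 CPM, with no marker at 0 in either set. Of 13 B cell markers 0 were called by edgeR, 12 had an unadjusted p under 0.05, and their median log2 fold change was 4.50. Of the 5 platelet markers Itga2b and Gp9 fell, while Pf4, Ppbp and Gp1ba were scarce, at no more than 3.42, 2.02 and 7.14 CPM. Of the T and NK cell, macrophage and neutrophil markers, 0 of 10, 0 of 10 and 0 of 8 were called. In each of those 3 lists 0 had an unadjusted p under 0.05. The part of these cell types in the carrier result was not tested.

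Genes working beside the carriers gave a mixed picture on the TMM scale. Library totals moved the median of all genes by 1.04 log2 in this identifier comparison. Falls near that size may therefore be lost or change sign on library totals, and the mix of rises and falls belongs to the TMM scale. Of 15 import components tested, Tomm70a, the outer-membrane receptor for carrier precursors, rose by 0.61 ± 0.17 under 200. Of 27 enzymes on either side of the carriers, 3 rose, namely Acly (0.73 ± 0.20), which splits exported citrate, Got2 (0.85 ± 0.22), of the malate-aspartate shuttle, and Aldh18a1 (0.65 ± 0.21), of proline synthesis. Another 3 fell: Gclm, of glutathione synthesis, by 1.67 ± 0.39, Pck2 by 1.21 ± 0.30 and Mthfd2, of mitochondrial folate metabolism, by 0.98 ± 0.32. Of 5 channels and pyruvate carriers, Mpc2 fell by 1.96 ± 0.42 and Vdac3 by 0.92 ± 0.22. Of 7 family members with other symbols or left out by the rule, Ucp2 fell by 1.65 ± 0.45 and Slc25a38, the erythroid carrier linked to glycine, by 1.15 ± 0.32. In the 7 genotype comparisons edgeR called 0 genes of these 4 lists, with 0 to 1 gene per list and comparison at an unadjusted p under 0.05.

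Count ratios of 8 paralog pairs compare members within a library and need no scaling between libraries. By a two-sided exact permutation test over D45/KO against WT/KO and against WT/WT, 0 of 16 tests had a Benjamini-Hochberg adjusted p under 0.05. The lowest raw p was 0.0857, for Slc25a18 over Slc25a22 (log2 ratio -3.00 ± 0.67 in D45/KO, n = 4, and -4.96 ± 2.40 in WT/WT, n = 3, exact permutation adjusted p = 0.889). The smallest p these group sizes allow is 0.00794 against WT/KO and 0.0286 against WT/WT. After adjustment over 16 tests, a single pair at either value could not pass 0.05, so the count of 0 shows little. Slc25a39 over Slc25a40 stood at 7.07 ± 0.54 in D45/KO, 7.25 ± 1.24 in WT/KO and 7.80 ± 2.42 in WT/WT, with a spread in WT/WT larger than any of the differences.

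The authors' deposited table compares WT/WT with WT/KO and lists 29 of the 40 carriers among 9918 genes. Of those 29 carriers in the authors' deposited table, 0 had a p under 0.05, the lowest adjusted p was 0.853, and 11 were higher and 18 lower in WT/WT. The share of all 9918 genes below that p was not taken, so the 0 cannot be read as particular to the carriers. The authors' deposited table gives Slc25a39 a log2 fold change of 1.37 and Slc25a51 one of 0.63, both as WT/WT over WT/KO.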

How the data were processed

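Per the labels' protocols, total RNA was isolated with Trizol, and a Swift Rapid RNA kit gave the libraries. HISAT2, featureCounts, limma and mm9 are named in the submitters' processing notes without versions or roles. The deposited table holds raw counts per gene symbol. A second table holds the authors' comparison of WT/WT with WT/KO as log2 fold changes with deposited p-values and adjusted p-values.

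Here counts were fitted in R 4.3.3 with edgeR 4.0.16 (TMM, filterByExpr by genotype, quasi-likelihood test, all 18 libraries, 13405 genes, Benjamini-Hochberg over all of them, called under 0.05). The SE is the absolute log2 fold change over the square root of F and is approximate. CPM used TMM-adjusted library sizes. The identifier comparison added a term to genotype. Alternatives used DESeq2 1.42.0, limma 3.58.1, other filters, scalings, covariates, a replicate block and subsets of libraries. Scripts were tested on simulated data. Exon lengths and overlaps came from GENCODE M21 (GRCm38), a later build than mm9, so gene models may differ. Paralog ratios used log2 counts with 0.5 added.

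Members, roles and lists were chosen with earlier results of these data known. Of 40 members 39 are described by name, 1 is not reported here, and 1 marker is likewise left out. Full values are given for members called, for the 3 smallest p-values in each direction of a comparison, and for a listed group of better-known carriers. The motif search, the promoters shown, the genes plotted, the marker threshold of 2 log2 CPM, the library-total scaling and the within-subset fits were chosen after values were seen. Each library comes from 1 mouse identifier, and depth ranged from 9360455 to 56323588 counts. Same-numbered libraries of D45/D45 and WT/WT had correlated deviations (r = 0.71, 0.35 and 0.19), as had those of WT/D45 and WT/WT (0.71, 0.22 and 0.12). The other comparisons each had a pair under 0.1, but that is an arbitrary cut. These correlations do not settle whether the numbers pair samples in any comparison. No label gives a pairing. D45/KO and WT/KO had r of 0.44, 0.63, 0.05 and 0.63. Replicate 1 of every genotype has an identifier under 200 and high B cell markers. In WT/WT, WT/D45 and D45/D45, replicates 2 and 3 had low B cell markers. In WT/KO and D45/KO, replicates 2 and 3 had high and replicate 4 low B cell markers. The r values within these 2 sets of genotypes therefore cannot be told apart from that split. The main fits used genotype alone and no pairing.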

Additional observations from a re-analysis of the deposited data

Results flagged for a closer look

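Of 80 groups of 4 or 5 libraries of 1 carrier, 8 had a library far from the rest by Dixon's test, where chance gives about 1 in 20, or 4. That figure assumes independent groups with normal spread. The 80 groups share the same libraries, so 8 beside 4 is no measure of an excess. In D45/KO, Slc25a11 was low in replicate 3 at 25.05 CPM (others 37.3 to 39.2), Slc25a18 was low in replicate 2 at 0.624 CPM (1.57 to 1.67), and Slc25a25 was high in replicate 4 at 21.3 CPM (14.5 to 15.5). Slc25a29 was high in D45/KO replicate 2 at 1.34 CPM (0.231 to 0.373) and Slc25a47 in D45/KO replicate 3 at 1.65 CPM (0.802 to 0.902). In WT/KO, Slc25a13 and Slc25a35 were high in replicate 1 at 3.03 CPM (0 to 0.778) and 1.85 CPM (0 to 0.513), and Slc25a20 was high in replicate 5 at 19.2 CPM (3.89 to 8.26).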

How the results depend on the processing

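In the 7 genotype comparisons 0 carriers were called under DESeq2, limma-voom, the other size factors, both other filters, library totals, the identifier factor, the replicate block, the compared groups alone and each library left out. The exceptions were 1 carrier with the B cell covariate, 6 with identifiers under 200 alone and 3 with high B cell marker libraries alone (D45/KO against WT/KO), and 1 with low B cell marker libraries alone (D45/KO against WT/WT). The replicate block changed no call there, and its carrier median for D45/KO against WT/KO was 0.14, against -0.07 without it. That median was 0.12 in high B cell marker libraries. For D45/KO against D45/D45 it was 0.37 on library totals and -0.02 to 0.23 with 1 library left out. In the identifier comparison 12 carriers were called by DESeq2, 8 by limma-voom, 7 without a filter (13.7% of all genes), 19 on library totals, 0 with the replicate block beside the identifier (0% of all genes) and 0 to 12 with 1 library left out (0% to 33.9% of all genes). Values that turned sign under identifiers under 200 alone and high B cell marker libraries alone were, in that order, 0.66 and 0.53 for Slc25a51 (D45/KO against WT/KO), 0.94 and 1.02 for Slc25a39 and 0.46 and 0.44 for Slc25a51 (D45/KO against WT/WT), 0.06 in both for Slc25a39 (WT/D45 against WT/WT), 0.20 and 0.67 for Slc25a39 (WT/KO against WT/WT), and 0.06 and 0.08 for Slc25a25 and 0.01 and 0.03 for Slc25a40 (D45/KO against D45/D45). In high B cell marker libraries alone Slc25a30 was -0.06 (WT/KO against WT/WT), and with identifiers under 200 alone the Slc25a34 interaction was 2.82. The Slc25a10 interaction was -0.05 by limma-voom, -0.07 in high B cell marker libraries, -0.15 on library totals and, with 1 library left out, -0.31 (without WT/WT replicate 2) to 0.60. In the identifier comparison Slc25a4 was -0.49 with the block, and on library totals Slc25a42 was 0.29, Slc25a44 0.33 and Slc25a24 0.30. The cause of these changes was not tested. No value was taken for Slc25a34 where both groups held 3 or fewer counts. Several subsets leave a genotype 1 library, which is assumed to vary like the others. The spread between libraries limits what could be called for abundant carriers as well as for the 8 with a median under 1 CPM, which also rest on few counts.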
